A study of Homo sapiens with 32 samples.

Results

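The miR-200 family comprises the 5 miRNA precursors mir-200b, mir-200a, mir-429, mir-200c and mir-141, and its members were taken by name from a count table of 1513 miRNA precursor rows. All 5 rows were present. Small RNA had been sequenced from 8 clones of 293T (CRL-3216), a transformed human embryonic kidney line labelled as kidney and epithelial-like. Each clone gave 4 libraries, 32 in all. The 4 WT clones were numbered 52, 55, 57 and 67. The 4 deletion clones, numbered 30, 34, 42 and 43 and of genotype DGCR8 delta103-126Q, had lost the reported contact site of ERH near the start of the DGCR8 protein through prime editing. DGCR8 binds RNA together with the nuclease DROSHA in the Microprocessor, the nuclear complex that releases miRNA hairpins from primary transcripts, and ERH is a small nuclear protein. Each clone of either genotype was transiently transfected with 4 vectors, encoding control shRNA_1, control shRNA_2, shERH_1 or shERH_2, selected with puromycin, sorted on day 5 for the vector's fluorescent marker and lysed for total RNA. The control libraries therefore carried a vector and drug selection as well. The clone was the replicate, and the 2 libraries of an arm were summed within a clone, which left 4 control sums and 4 ERH sums per genotype. The comparisons ask how the family responds to the loss of the contact site, to ERH knockdown and to both.

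miRNAs of this family bind messenger RNAs through the seed, bases 2 to 8 of the mature strand. They are known for repressing ZEB1 and ZEB2, transcription factors that silence E-cadherin, and ZEB1 and ZEB2 in turn repress the transcription of both miR-200 loci. The family is therefore abundant in epithelial cells, is lost in the epithelial to mesenchymal transition, and is low in many lines of mesenchymal character. Because the members lie in short clusters on 2 chromosomes, each cluster is made as 1 primary transcript from which the Microprocessor cuts several neighbouring hairpins.

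The mature sequences are shown because the family splits by 1 base of the seed, and because 2 pairs of members differ so little that their reads may not be separable. They are RefSeq sequences (GRCh38.p14), 5′ to 3′, with the seed in capitals.
hsa-miR-200b-3p: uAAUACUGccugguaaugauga
hsa-miR-200c-3p: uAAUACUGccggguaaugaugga
hsa-miR-429: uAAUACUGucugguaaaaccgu
hsa-miR-200a-3p: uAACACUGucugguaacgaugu
hsa-miR-141-3p: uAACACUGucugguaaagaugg

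The first 3 carry the seed AAUACUG and the last 2 the seed AACACUG. Between miR-200b-3p and miR-200a-3p the seed difference was U4C, counted from 1 at the 5′ end. Over the 22 shared positions miR-200b-3p and miR-200c-3p differed at 2, U11G and A22G. The strands miR-200a-3p and miR-141-3p also differed at 2, C17A and U22G. How mismatches and reads with several matches were counted is not given in the sources used here. The split of counts within these 2 pairs is therefore uncertain. Each pair has 1 member on each chromosome, and the member on chromosome 12 was the far more abundant one.

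The rows mir-200b, mir-200a and mir-429 come from 1 locus on the plus strand of chromosome 1 (GRCh38, GENCODE release 29). MIR200B lies at 1167104 to 1167198, MIR200A at 1167863 to 1167952 and MIR429 at 1169005 to 1169087. The hairpins are 664 and 1052 bases apart, and GENCODE release 29 gives them no host gene, while RefSeq places all of them within the long non-coding RNA gene MIR200BHG (1162877 to 1170338). The rows mir-200c and mir-141 come from the plus strand of chromosome 12, MIR200C at 6963699 to 6963766 and MIR141 at 6964097 to 6964191, 330 bases apart. Both lie in an intron of the non-coding gene MIR200CHG, and the mir-141 hairpin ends 9 bases before exon 2. The hairpins of the chromosome 12 pair are shown because they leave the same primary transcript and were compared with each other below, and mir-429 because it had the largest fitted change. Capitals mark the mature 3p strand (RefSeq, GRCh38.p14).
mir-200c hairpin: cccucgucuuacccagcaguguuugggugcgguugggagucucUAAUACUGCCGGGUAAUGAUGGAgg
mir-141 hairpin: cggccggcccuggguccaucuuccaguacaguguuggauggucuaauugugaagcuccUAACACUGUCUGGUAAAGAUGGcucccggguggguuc
mir-429 hairpin: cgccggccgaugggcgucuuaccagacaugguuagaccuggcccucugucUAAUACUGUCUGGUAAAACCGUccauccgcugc

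The mir-200c entry was 68 nt long, with a GC content of 55.9% and a predicted folding energy of -30.8 kcal/mol. The mir-141 entry was 95 nt long, with 55.8% GC and -49.0 kcal/mol. For mir-429 the length was 83 nt, with 57.8% GC and -38.8 kcal/mol.

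Libraries held between 1318923 and 6222790 miRNA counts, with a median of 2299476.5. One count was thus worth 0.161 to 0.758 CPM, the count scaled to the total of miRNA counts in the library, and 0 counts allowed a level of up to 0.482 to 2.27 CPM (3 counts, counting error only). Of the kidney and epithelial markers, mir-30a and mir-192 were abundant, with medians of 9014 and 1475 CPM, while mir-205 lay between 0 and 14.5 CPM. The summed level of the 5 blood markers (mir-142, mir-223, mir-150, mir-144 and mir-451a) reached 3568 CPM in a deletion control library, against at most 348 CPM in the wild-type control libraries. This sum was chiefly mir-142. Over all libraries mir-142 reached 3155 CPM and mir-223 395 CPM, while mir-150, mir-144 and mir-451a reached at most 9.95, 13.2 and 47.1 CPM. The part of the blood markers in the results was not tested.

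All 5 members together were a minor fraction of the miRNA in these cells, and nearly all of it came from chromosome 12. Over the 32 libraries the family had 12509 counts, 12034 of them from chromosome 12 and 475 from chromosome 1, and a median of 0.0164% of a library's miRNA counts. The row mir-141 had 8184 counts, between 80 and 623 per library with a median of 214.5, and ranked 193 among the 1284 rows with a count. The row mir-200c had 3850 counts, between 41 and 290 per library with a median of 105.5, and ranked 243. Both were seen in every library. The chromosome 1 rows were far rarer. The row mir-200a had 326 counts, between 0 and 26 per library with a median of 10.5, and was at 0 in 2 libraries. The row mir-200b had 89 counts, at most 10 per library with a median of 2, and was at 0 in 7 libraries. The row mir-429 had 60 counts, at most 11 per library with a median of 1, and was at 0 in 15 libraries. The median levels were 102.6 CPM for mir-141, 49.1 for mir-200c, 3.93 for mir-200a, 0.702 for mir-200b and 0.415 for mir-429. The ranges over libraries overlapped between mir-141 (41.7 to 210.9 CPM) and mir-200c (20.9 to 99.3 CPM), and among the 3 chromosome 1 rows. No level of mir-200a, at most 11.2 CPM, reached the lowest mir-200c value.

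**Figure D1:**
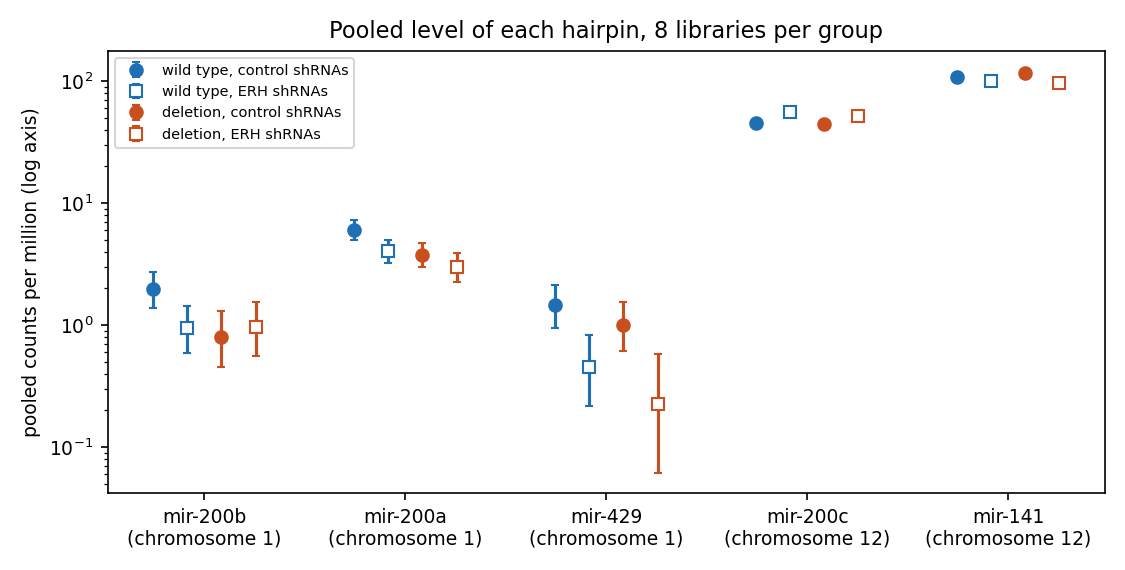
Pooled level of each hairpin in CPM on a log axis, from the 8 libraries of each genotype and arm, with bars for the 95% exact Poisson interval, which covers counting error only. The chromosome 12 rows lie between 44.5 and 116 CPM in all groups and the chromosome 1 rows between 0.225 and 6.07 CPM.

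Levels of the members were also compared across libraries. Over the 32 libraries, of which 4 come from each clone, Pearson's r of the log2 levels was 0.30 for mir-200b with mir-200a, 0.35 for mir-200b with mir-429 and 0.47 for mir-200a with mir-429. It was 0.09 for mir-200c with mir-141, whose hairpins share a transcript, and, for the near-identical pairs, -0.03 for mir-200a with mir-141 and 0.23 for mir-200b with mir-200c. The rows with a level of at least 10 CPM most like mir-141, out of 374 compared, were mir-424 (r = 0.79), mir-27a (0.74) and mir-34c (0.72). Those most like mir-200c were mir-1269b (0.74), mir-574 (0.72) and mir-1843 (0.70). Rows of the family were left out of both rankings beforehand. The low row mir-200a had an r of 0.76 with mir-183, 0.69 with mir-182 and 0.17 with mir-96. These 3 rows were chosen after their values had been seen. These correlations are descriptions: libraries of a clone share the clone, and the counts of the chromosome 1 rows are too low for a weak correlation to be read.

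ERH knockdown lowered mir-200a, mir-429 and mir-141 relative to the bulk of miRNAs when all 8 clones were fitted with TMM scaling, mir-141 took the opposite sign with spike-in scaling, and mir-200c did not pass the test. All 5 members entered this test of 667 rows, and 3 of the 5 passed an adjusted p under 0.05, each of them lower on the TMM scale (edgeR quasi-likelihood test with the clone as a block, Benjamini-Hochberg). Of all rows tested 36.6% passed, and 16.5% passed as lower, at a median log2 fold change of 0.06. Levels below are TMM-scaled CPM of the 2 summed libraries, and differences are log2 fold changes.

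Among the 667 rows tested, 37.3% were lower with ERH shRNAs in at least 5 of 8 clones and 7.35% in all 8. The row mir-200a, with the AACACUG seed, was lower in 7 of 8, for which the share of rows lies between these shares. In wild-type clones 52, 55, 57 and 67 it went from 7.25, 8.86, 6.18 and 6.41 CPM under control shRNAs to 3.57, 3.88, 3.94 and 4.83 CPM. These came from 28, 36, 19 and 25 counts and from 15, 14, 31 and 29 counts. The lowest wild-type control sum lay above the highest wild-type ERH sum. A gap of this kind toward lower values was seen for 5.71% of the 613 rows tested in wild-type clones. In deletion clones 30, 34, 42 and 43 it went from 2.64, 6.55, 2.85 and 2.36 CPM to 0.675, 6.64, 1.24 and 1.22 CPM. Clone 34 stood above the other deletion clones in both arms and did not fall. The means were 7.17 ± 1.21 and 4.06 ± 0.541 CPM in wild-type clones and 3.60 ± 1.97 and 2.44 ± 2.81 CPM in deletion clones (SD, n = 4). The log2 fold change over 8 clones was -0.89 with an SE of 0.29 (edgeR, adjusted p = 0.0211). It was no longer past the threshold without clone 55 (-0.80, adjusted p = 0.0809 by edgeR) or without clone 30 (-0.78, adjusted p = 0.0559 by edgeR).

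The row mir-429, which shares the AAUACUG seed, had the largest fitted change, -1.92 with an SE of 0.73 (edgeR, adjusted p = 0.0434), on very few counts. The 8 control sums held 6, 15, 4 and 1 counts in wild-type clones 52, 55, 57 and 67 and 3, 16, 1 and 0 in deletion clones 30, 34, 42 and 43. The ERH sums held 0, 1, 4 and 5 counts and 0, 3, 0 and 1 counts in the same order. Clones 55 and 34 supplied most of the control counts, and the arms overlapped in both genotypes. The level was lower in 6 of 8 clones and higher in clones 67 and 43. A fall in at least 5 of 8 clones was seen for 37.3% of the rows tested, and in all 8 for 7.35%. The share for at least 6 of 8 lies between them. Pooled over libraries, 26 wild-type control counts became 10, and 20 deletion control counts became 4. Those were 1.46 CPM (0.955 to 2.14) and 0.451 CPM (0.216 to 0.830) in wild-type clones, and 0.997 CPM (0.609 to 1.54) and 0.225 CPM (0.0614 to 0.577) in deletion clones, each with its 95% Poisson interval. The call was lost without clone 52, 57, 30 or 42, with adjusted p from 0.0593 to 0.106 by edgeR. Without clone 55, and likewise without clone 34, the row fell below the count filter and was not tested.

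The row mir-200b, the first hairpin of the chromosome 1 transcript, had a log2 fold change of -0.90 ± 0.59 (SE) and did not pass (adjusted p = 0.242 by edgeR). In wild-type clones 52, 55, 57 and 67 it was at 3.11, 1.72, 1.63 and 2.82 CPM under control shRNAs and at 1.43, 0, 1.40 and 0.666 CPM under ERH shRNAs. On the TMM scale these wild-type arms did not overlap, on 35 pooled counts against 21. Such a gap toward lower values was seen for 5.71% of the 613 rows tested in wild-type clones. Without the TMM factors the arms overlapped: clone 57 held 5 of 3688509 counts under control and clone 52 held 6 of 3801079 under ERH shRNAs. In deletion clones 30, 34, 42 and 43 the levels were 0, 1.24, 1.32 and 0.546 CPM and then 0.675, 1.97, 0.413 and 0.175 CPM, lower in 2 of 4 clones.

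Summed over its 3 rows on the TMM scale, the chromosome 1 locus was lower with ERH shRNAs in 8 of 8 clones. Of single rows 7.35% showed this direction in all 8. The sum went from 11.2 ± 2.40 to 5.33 ± 0.955 CPM in the wild-type clones, and in the deletion clones from 5.29 ± 3.61 to 3.43 ± 3.81 CPM (SD, n = 4). The wild-type arms did not overlap, a gap toward lower values that 5.71% of single rows showed, and the deletion arms did. Most of this sum was mir-200a. How often sums of several rows fall in this way was not tested, and the sums were not formed with spike-in scaling. The chromosome 12 rows, summed alike, were lower with ERH shRNAs in 6 of 8 clones, and the arms overlapped for both genotypes. Wild-type means of that sum were 180 ± 37.6 CPM with control and 157 ± 42.4 CPM with ERH shRNAs. Deletion means were 159 ± 59.1 and 132 ± 44.7 CPM (SD, n = 4).

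The chromosome 12 rows differed in whether they passed, but the change of their ratio, tested directly below, did not pass. The row mir-141, with the AACACUG seed, was the most abundant member and had on the TMM scale a log2 fold change of -0.41 with an SE of 0.15 (edgeR, adjusted p = 0.0428). It went from 153.8, 144, 72.5 and 129.7 CPM to 107, 71.9, 92.3 and 133.6 CPM in wild-type clones 52, 55, 57 and 67. In deletion clones 30, 34, 42 and 43 it went from 194, 80.7, 85.9 and 96.4 CPM to 123, 49.1, 102 and 67.7 CPM. The level was lower in 5 of 8 clones and higher in clones 57, 67 and 42, and the arms overlapped in both genotypes. At least 5 of 8 clones were lower for 37.3% of the rows tested. The call was lost without clone 52, 55, 30, 34 or 43, with adjusted p from 0.0843 to 0.219 by edgeR.

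The row mir-200c, whose hairpin lies upstream of mir-141 in the same intron, had a log2 fold change of 0.03 with a 95% interval of -0.29 to 0.34 (adjusted p = 0.920 by edgeR). In wild-type clones 52, 55, 57 and 67 it was at 54.4, 26.6, 57.6 and 79.96 CPM under control shRNAs and at 66.5, 36.9, 47.4 and 73.3 CPM under ERH shRNAs. In deletion clones 30, 34, 42 and 43 it was at 50.3, 36.8, 65.0 and 25.5 CPM and then at 60.5, 40.7, 51.7 and 31.4 CPM. The clones differed from one another by more than the arms of a clone did, and the level was lower with ERH shRNAs in 3 of 8.

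**Figure D2:**
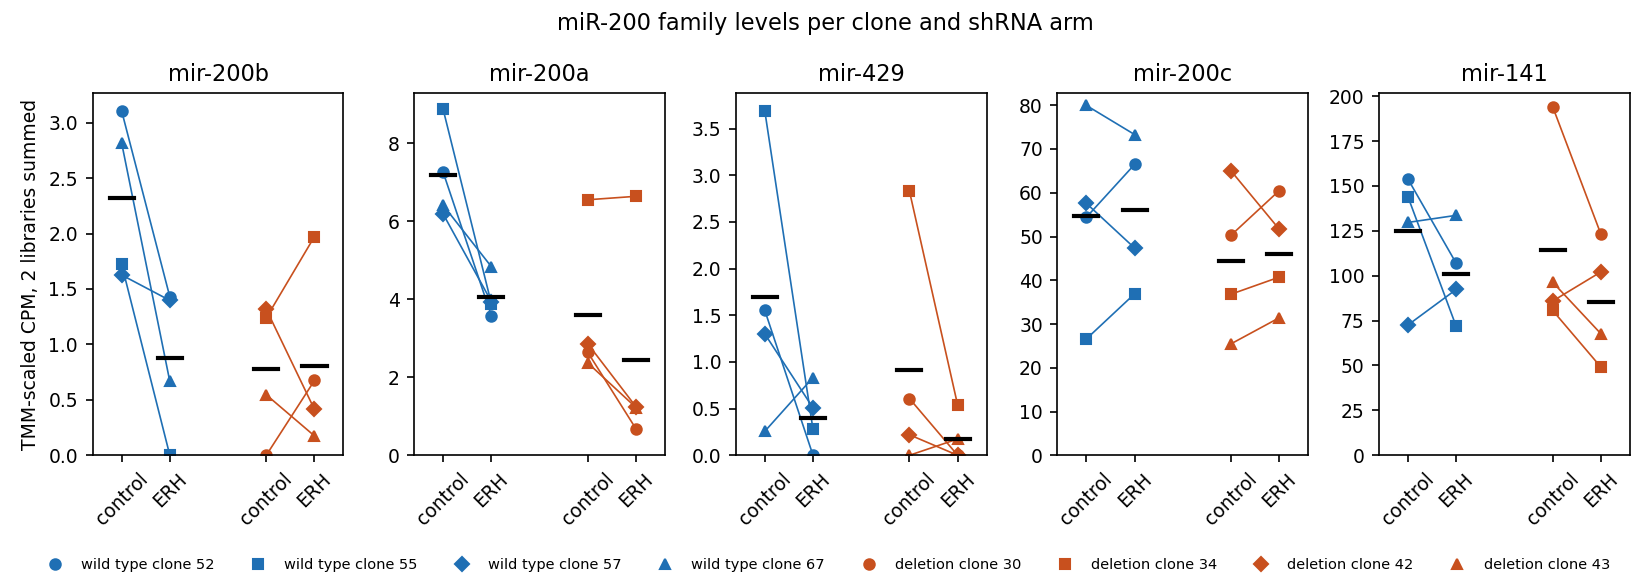
Level of each member in TMM-scaled CPM (linear axes that start at 0 and differ between panels), 1 point per clone and arm, with lines joining the arms of a clone and black bars for the means of 4 clones. For mir-200a the 4 wild-type clones all fall, from 6.18 to 8.86 CPM down to 3.57 to 4.83 CPM, and deletion clone 34 stays at 6.55 and 6.64 CPM, while for mir-200c the lines run both ways.

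The direction of mir-141 and mir-200c depended on the scaling, because the scaling moved all rows. Spike-in scaling put the median of all 667 rows at 0.52, and 233 rows were higher and 22 lower, against 134 and 110 with TMM scaling. The values were then 0.05 for mir-141 (adjusted p = 0.890 by edgeR), 0.49 for mir-200c (adjusted p = 0.0346 by edgeR), -0.41 for mir-200a (adjusted p = 0.342 by edgeR), -0.39 for mir-200b (adjusted p = 0.625 by edgeR) and -1.40 for mir-429 (adjusted p = 0.175 by edgeR). The only member past the threshold on that scale was mir-200c, as higher. Total miRNA scaling put the median at 0.33, with 210 rows higher and 36 lower, and no member passed, while 2 members were at an unadjusted p under 0.05. Relative to the median of all rows, mir-141 was at -0.47 with TMM and -0.47 with spike-in scaling, mir-200a at -0.95 and -0.93, mir-429 at -1.98 and -1.92, and mir-200c at -0.04 and -0.03. The falls of mir-141, mir-200a and mir-429 are thus falls relative to other miRNAs, and a fall in amount per total RNA was not shown.

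**Figure D3:**
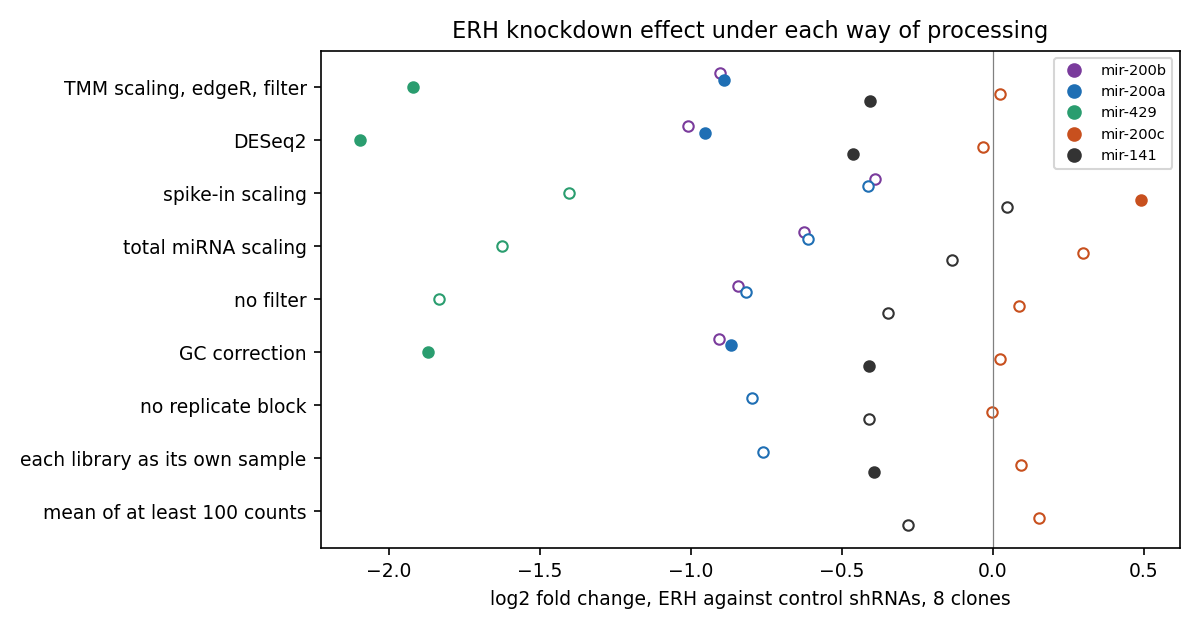
Log2 fold change of each member with ERH against control shRNAs over 8 clones under each way of processing, filled where the adjusted p is under 0.05 and open otherwise, with members left out where a row did not pass the filter. All values of mir-200a, mir-200b and mir-429 are below 0, while mir-141 moves from -0.41 to 0.05 and mir-200c from 0.03 to 0.49 with spike-in scaling.

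Because targets are read through the seed, levels were also summed by the seed of the mature 3p strand. A row holds both arms of a hairpin, so these sums can include reads of the opposite strand. The opposite strands of mir-200b, mir-200a and mir-200c have other seeds. The 3 AAUACUG rows, mostly mir-200c, summed to 58.6 ± 20.9 CPM under control and 57.3 ± 17.2 CPM under ERH shRNAs in wild-type clones, and to 46.1 ± 17.04 and 47.1 ± 12.6 CPM in deletion clones (SD, n = 4). The 2 AACACUG rows, mostly mir-141, summed to 132 ± 37.1 and 105 ± 26.3 CPM in wild-type clones and to 118 ± 52.9 and 88.0 ± 31.2 CPM in deletion clones (SD, n = 4). The first sum was lower with ERH shRNAs in 3 of 8 clones and the second in 5 of 8, and all arms overlapped. Between the seeds the difference was not tested.

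A share within the family needs no scaling. In wild-type clones 52, 55, 57 and 67 the chromosome 1 locus supplied 5.41, 7.72, 6.54 and 4.33% of the family's counts under control shRNAs and 2.80, 3.69, 4.01 and 2.97% under ERH shRNAs. The mean went from 6.001 ± 1.46 to 3.37 ± 0.576% (SD, n = 4), and the arms did not overlap. How often shares within other families part in this way was not tested. In deletion clones 30, 34, 42 and 43 the share was 1.31, 8.29, 2.83 and 2.33% under control shRNAs and 0.729, 9.24, 1.06 and 1.56% under ERH shRNAs. Clone 34 lay far above the other 3 deletion clones in both arms and moved up, while the others moved down.

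Each genotype was also fitted alone, with fewer clones and stricter filters. In wild-type clones 4 members were tested and 0 passed by edgeR, where 31.3% of the 613 rows did. At an unadjusted p under 0.05 there was 1 member, mir-200a, and DESeq2 also passed 0. The values were -0.89 for mir-200a (adjusted p = 0.0957 by edgeR), -1.54 for mir-200b (0.120), -0.37 for mir-141 (0.233) and -0.0047 for mir-200c (0.988). Fitted without the filter, mir-429 was at -1.75 (adjusted p = 0.392 by edgeR). With spike-in scaling mir-200a was at -0.27 (adjusted p = 0.659 by edgeR), and without clone 55 mir-141 was at -0.12 (adjusted p = 0.776 by edgeR). In deletion clones 3 members were tested and 0 passed by edgeR, where 10.3% of the 633 rows did. One member, mir-141, was at an unadjusted p under 0.05, and DESeq2, which gave mir-200a no adjusted p there, passed 0. The values were -0.85 for mir-200a (adjusted p = 0.251 by edgeR), -0.43 for mir-141 (0.119) and 0.07 for mir-200c (0.806). Fitted without the filter, mir-200b was at -0.02 (adjusted p = 0.999 by edgeR) and mir-429 at -1.99 (adjusted p = 0.695 by edgeR). Without clone 34 mir-200a was at -1.32 (adjusted p = 0.220 by edgeR). Without clone 42, whose mir-141 level was higher with ERH shRNAs, the value for mir-141 was -0.64 (adjusted p = 0.0405 by edgeR).

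Whether the knockdown effect differed between genotypes was tested directly as the interaction. All 5 members were tested by edgeR and 0 passed, with 0 at an unadjusted p under 0.05, and 0% of the 667 rows passed. The difference of effects, deletion minus wild type, was 0.11 for mir-200a (95% interval -1.15 to 1.37), 1.58 for mir-200b (-0.91 to 4.08), -0.19 for mir-429 (-2.38 to 2.00), 0.15 for mir-200c (-0.43 to 0.73) and 0.01 for mir-141 (-0.62 to 0.64). These intervals are wide enough to hold differences as large as the knockdown effects themselves. DESeq2 passed 0 members as well, but gave an adjusted p for mir-200c and mir-141 only.

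The shRNAs were set apart by testing each ERH shRNA against the control shRNA of the same number. With shRNA 1 the row mir-141 was lower by a log2 fold change of -0.50 with an SE of 0.17 (edgeR, adjusted p = 0.0321), the 1 call among 3 members tested, where 28.3% of 586 rows passed. With shRNA 2 it was -0.34 with an SE of 0.23 (edgeR, adjusted p = 0.298), and 0 of 3 members passed, where 20.1% of 582 rows did. By unadjusted p that second test held 1 member, mir-200a, and DESeq2 passed 0. The row mir-200a was at -0.55 (adjusted p = 0.287 by edgeR) and -1.02 (adjusted p = 0.143 by edgeR) with shRNA 1 and 2. The row mir-200c was at 0.10 and 0.09. Fitted without the filter, mir-200b was at -0.49 and -0.93 and mir-429 at -1.89 and -1.87 with shRNA 1 and 2, none of them past the threshold. The mir-141 call was lost without clone 55 or clone 30. With spike-in scaling shRNA 1 gave 0.03 for mir-141, -0.0024 for mir-200a (adjusted p = 0.996 by edgeR) and 0.64 for mir-200c (adjusted p = 0.0202 by edgeR), at a median of 0.65 for all rows. As the background, control shRNA 2 against control shRNA 1 gave 0 of 3 members, with 0 at an unadjusted p under 0.05 and 0 by DESeq2. The values were -0.12 for mir-141, -0.18 for mir-200a and 0.18 for mir-200c, and without the filter 0.30 for mir-200b and 0.90 for mir-429. Of 571 rows 0% passed.

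Loss of the ERH contact site of DGCR8, under control shRNAs, came with a lower mir-200a level in 3 of the 4 deletion clones, and no member passed the test. The count filter kept 3 members among 536 rows, of which 0 passed by edgeR where 25.9% of all rows did. One member, mir-200a, was at an unadjusted p under 0.05, and DESeq2 passed it (-1.20, adjusted p = 0.0293). By edgeR mir-200a was at -1.11 with an SE of 0.42 (adjusted p = 0.0645). Wild-type clones lay at 6.18 to 8.86 CPM and deletion clones 30, 42 and 43 at 2.36 to 2.85 CPM, while deletion clone 34, at 6.55 CPM, lay within the wild-type range. Without clone 34 the value was -1.57 (adjusted p = 0.0332 by edgeR). The summed level of the blood markers, chiefly mir-142, was also higher in some deletion control libraries, as given above. Its relation to mir-200a was not tested.

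The other chromosome 1 rows were too low for the filter in this comparison. The row mir-200b was at 2.32 ± 0.754 CPM in wild-type and 0.776 ± 0.623 CPM in deletion clones (SD, n = 4). On the TMM scale the genotypes did not overlap. Among all 1168 rows with a count, 3.51% were lower without overlap on that scale. Only 536 of these rows passed the filter. Without the TMM factors the mir-200b levels overlapped: wild-type clone 57 held 5 of 3688509 counts and deletion clone 42 held 6 of 4115831. Fitted without the filter, mir-200b was at -1.64 (adjusted p = 0.208 by edgeR) and mir-429 at -0.95 (adjusted p = 0.503 by edgeR). On chromosome 12, mir-200c was at 54.6 ± 21.9 CPM in wild-type and 44.4 ± 17.1 CPM in deletion clones, and mir-141 at 125.0 ± 36.4 and 114 ± 53.7 CPM (SD, n = 4). Their log2 fold changes were -0.41 (95% interval -1.22 to 0.40, adjusted p = 0.437 by edgeR) and -0.25 (-0.97 to 0.47, adjusted p = 0.607 by edgeR). Both took the opposite sign with spike-in scaling, at 0.10 and 0.29, where the median of all rows moved from -0.03 to 0.42 and 134 rows were higher and 0 lower in place of 101 and 38. With spike-in scaling mir-200a was at -0.69 (adjusted p = 0.449 by edgeR) and with total miRNA scaling at -0.65 (adjusted p = 0.358 by edgeR). Relative to the median of all rows it was at -1.08 with TMM and -1.11 with spike-in scaling.

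Under ERH shRNAs no tested difference between the genotypes passed. Of 3 members tested by edgeR 0 passed, with 0 at an unadjusted p under 0.05 and 0 by DESeq2, and 0% of 569 rows passed. The values were -0.74 for mir-200a (95% interval -2.06 to 0.59), -0.29 for mir-200c (-0.96 to 0.38) and -0.25 for mir-141 (-0.95 to 0.45). Without clone 34 mir-200a was at -1.96 (adjusted p = 0.328 by edgeR), and over the 8 clones left out in turn mir-141 ranged from -0.55 to -0.06 and mir-200c from -0.53 to -0.11. The rows below the filter were at 0.873 ± 0.680 CPM in wild-type and 0.809 ± 0.802 CPM in deletion clones for mir-200b, and at 0.405 ± 0.353 and 0.178 ± 0.254 CPM for mir-429 (SD, n = 4). Fitted without the filter, mir-200b was at -0.16 (adjusted p = 0.955 by edgeR) and mir-429 at -1.12 (adjusted p = 0.696 by edgeR). The genotypes overlapped for all 5 rows.

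Deletion clones with ERH shRNAs were then set against wild-type clones with control shRNAs, which carry neither change. This comparison shares its wild-type control sums with the knockdown and deletion comparisons. The row mir-200a was lower by -1.58 with an SE of 0.60 (edgeR, adjusted p = 0.0463), the 1 call among 3 members tested, where 46.8% of 553 rows passed and 16.5% passed as lower. It was at 6.18 to 8.86 CPM in the wild-type controls and at 0.675, 6.64, 1.24 and 1.22 CPM in deletion clones 30, 34, 42 and 43, so the groups overlapped through clone 34. The call was lost on leaving out any clone other than 34. With spike-in scaling it was -0.95 (adjusted p = 0.280 by edgeR), at a median of 0.73 for all rows, where 238 rows were higher and 20 lower in place of 168 and 91. The rows mir-141 and mir-200c were at -0.57 (adjusted p = 0.174 by edgeR) and -0.27 (adjusted p = 0.535 by edgeR). Fitted without the filter, mir-429 was at -3.07 (adjusted p = 0.0301 by edgeR), from 26 pooled counts against 4, and mir-200b at -1.53 (adjusted p = 0.175 by edgeR).

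**Figure D4:**
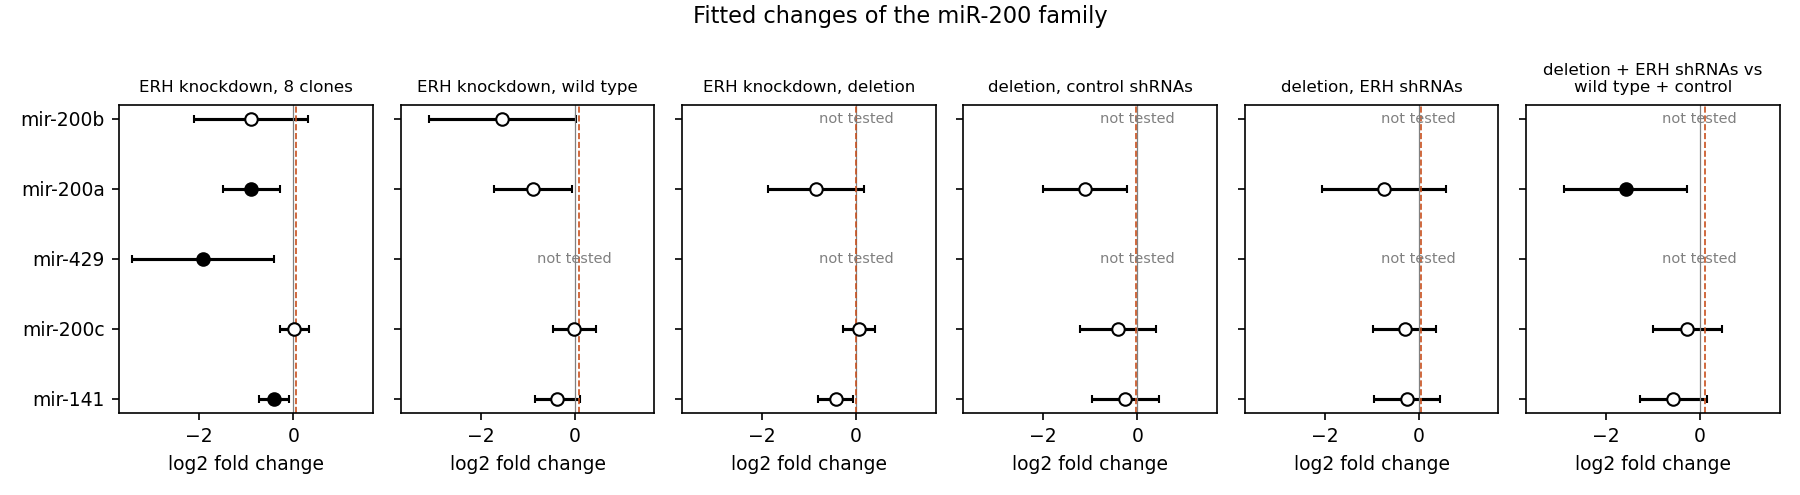
Fitted log2 fold change of each member in 6 comparisons, with 95% intervals, filled where the adjusted p is under 0.05 and open otherwise, and a dashed line at the median of all rows tested. The knockdown over 8 clones has filled points for mir-200a, mir-429 and mir-141 (TMM scaling, with spike-in scaling mir-141 is at 0.05), and the deletion under ERH shRNAs has none.

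Ratios between hairpins of 1 primary transcript cancel its transcription and any scaling, and ask whether neighbouring hairpins change unequally. The log2 ratio of mir-141 to mir-200c counts was 1.29 ± 0.78 under control shRNAs and 0.86 ± 0.27 under ERH shRNAs (SD, n = 8). The change within clones was -0.44 ± 0.78 (SD, n = 8), with lower values under ERH shRNAs in 5 of 8, and did not pass (two-sided exact sign-flip permutation test, p = 0.125, adjusted over 12 tests 0.931). The control ratios were spread more widely than the ERH ratios. Among libraries the ratio of counts lay between 1.02 and 6.22 in wild-type and between 0.917 and 8.61 in deletion control libraries, and between 1.01 and 2.49 and between 0.650 and 2.79 in the ERH libraries. The 2 control libraries of clone 30 alone had 8.61 and 2.21, so part of this spread lay within a clone. Under control shRNAs the genotypes had log2 ratios of 1.24 ± 0.93 and 1.35 ± 0.74 (SD, n = 4, two-sided exact permutation p = 0.857). Under ERH shRNAs they had 0.87 ± 0.13 and 0.85 ± 0.39 (SD, n = 4, exact permutation p = 1.00). The difference of the knockdown changes was -0.13 (exact permutation p = 0.8286).

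On chromosome 1 the log2 ratio of mir-200a to mir-200b changed by -0.11 ± 2.15 with knockdown (SD, n = 8, exact sign-flip permutation p = 0.883) and that of mir-429 to mir-200b by -0.74 ± 2.99 (SD, n = 8, exact sign-flip permutation p = 0.5). None of the 12 ratio tests passed, and the smallest adjusted p was 0.931. The smallest p-values these designs allow are 0.00781 for 8 clones and 0.0286 for 4 against 4. Adjusted over 12 tests, a single result at these minima would stand at 0.0938 and 0.343, so no ratio could have passed on its own.

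**Figure D5:**
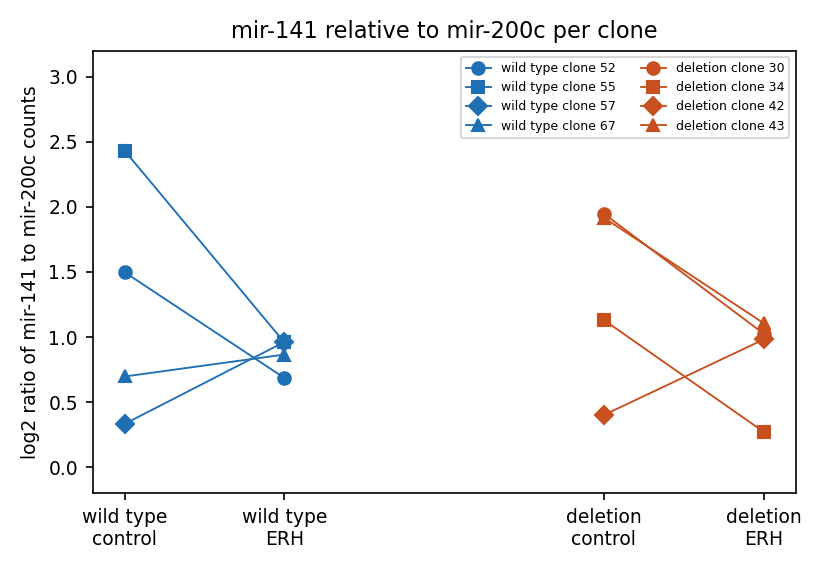
Log2 ratio of mir-141 to mir-200c counts per clone, with lines joining the control and ERH sums of a clone. Control sums spread from 0.33 to 2.43 and ERH sums from 0.27 to 1.11, and 5 of 8 lines slope down.

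Other miRNAs reported to act in the epithelial to mesenchymal transition were counted in the same tests. Of 16 miRNAs reported to oppose it, all tested, 9 fell with ERH knockdown over 8 clones, 0 rose and 7 did not pass (edgeR), at a median of -0.38 against 0.06 for all rows, of which 16.5% were called lower. Those that fell included mir-192 (-1.95), mir-203a (-0.71), mir-34a (-0.55) and mir-30c (-0.45), and the ZEB-targeting mir-205, at -0.73 (adjusted p = 0.164 by edgeR), did not pass. Of 9 miRNAs reported to promote the transition 4 fell and 0 rose, at a median of -0.27, among them mir-10b (-0.50) and mir-221 (-0.37). Both lists thus held falls and no rises, and with spike-in scaling 1 of the 16 was lower and 0 higher, and 0 of the 9 passed, at medians of 0.07 and 0.19 against 0.52 for all rows. Under the deletion with control shRNAs 2 of the 16 fell, mir-30a (-0.61) and mir-30e (-0.63), at a median of -0.59 against -0.03 for all rows. Of all rows 7.09% were called lower there. Of the 9, 3 fell and mir-155 rose, by 2.10 (adjusted p = 0.0430 by edgeR). With spike-in scaling none of the 16 passed there. The rows mir-192, mir-194, mir-203a, mir-205, mir-215, mir-30a and mir-375 also stand on the list of kidney and epithelial markers, and mir-155 on that of mesenchymal markers. Protein or mRNA of ZEB1, ZEB2 and E-cadherin was not analysed here.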

How the data were processed

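The authors deposited raw read counts per miRNA precursor and per spike-in, 1 column per library, from QIAseq miRNA libraries of 100 ng of a mixture of 400 ng of total RNA with 4 spike-ins, per the labels' protocols. A row holds both arms of a hairpin. SAMtools is named in the submitters' processing notes; the aligner, genome build and any use of molecular identifiers are not given in the sources used here. The table covers miRNAs, so neither the knockdown of ERH mRNA nor the edit of DGCR8 was checked against the labels.

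The members and lists were chosen with earlier results of these data known. Counts were summed per clone and arm and tested with edgeR 4.0.16 (R 4.3.3): filterByExpr, TMM scaling, glmQLFit and glmQLFTest, Benjamini-Hochberg adjustment over all rows, threshold 0.05. Knockdown and interaction carried the clone as a block; genotype tests compared 4 with 4 clones. The labels give each clone all 4 vectors, and a clone's control and ERH sums deviated together from their group means (r from 0.42 to 0.86 over 314 rows in 8 clones). Whether the clones share an origin beyond the line is not stated, so p-values speak for these clones only. Those of the genotype tests measure the spread between clones, and those of the blocked tests the spread of changes within clones. Chi-square per degree of freedom was at least 75.4 over 48 pairs of libraries in a group, so every library counted as separate. Ratios used a pseudocount of 0.5 and exact permutation tests (scipy 1.17.1). Hairpins were folded with RNAfold 2.7.2. All 5 members are named in every comparison, from a fit without the filter where they failed it. The 3 rows outside the family most like a member by Pearson's r are named where both had at least 10 CPM. The transition lists were mir-205, mir-203a, mir-34a to mir-34c, mir-192, mir-215, mir-194, mir-101, mir-138, mir-30a to mir-30e and mir-375 (oppose) and mir-9, mir-10b, mir-21, mir-155, mir-221, mir-222, mir-103a, mir-107 and mir-181a (promote). The kidney or epithelial markers were mir-192, mir-194, mir-215, mir-204, mir-30a, mir-205, mir-203a and mir-375, and the blood markers mir-142, mir-223, mir-150, mir-144 and mir-451a. Other marker lists were mir-124, mir-9, mir-128, mir-137 and mir-218 (neuronal), mir-126 (endothelial), mir-1, mir-133a, mir-133b and mir-206 (muscle) and mir-143, mir-145, mir-199a, mir-199b, mir-214 and mir-155 (mesenchymal). They gave median summed levels per group of 28888 to 33870 CPM (neuronal, chiefly mir-218), 3629 to 5434 (endothelial), 25.7 to 38.4 (muscle) and 272 to 355 (mesenchymal), with mir-206, mir-133b and mir-214 at a median of 0. The fits were tested on simulated counts. Alternatives were DESeq2 1.42.0, other scalings, filters, GC correction, no block, single libraries and leaving out each clone.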

Additional observations from a re-analysis of the deposited data

Results flagged for a closer look

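Of 37 sets of 4 or 8 clone values checked, 4 had an end value far from the others by Dixon's criterion, and chance gives about 1 in 20. Deletion clone 34 had the highest mir-200a level of its genotype in both arms, 6.55 CPM under control and 6.64 CPM under ERH shRNAs, on 37 counts each. The same clone had the lowest log2 ratio of mir-141 to mir-200c among the deletion ERH sums, 0.27. Deletion clone 30 had the highest mir-141 level of the deletion control sums, 194 CPM.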

How the results depend on the processing

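Depth limits the chromosome 1 rows most: mir-429 and mir-200b rest on 60 and 89 counts in 32 libraries. The mir-200b and mir-429 rows passed the count filter in few comparisons, and calls near the threshold were lost or gained under small changes of processing; the cause was not tested. All alternatives were marked as planned, but earlier results of these data were already known.

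Over 8 clones, the 3 members called for the knockdown became 1 with spike-in scaling (mir-200c, as higher), 0 with total miRNA scaling, 0 with no filter, 0 with a mean of at least 100 counts, which left fewer members to test, 1 with each library as its own sample, and 0 without the replicate block, where all calls fell from 244 to 37. Single libraries and the fit without the block each tested 3 members, as mir-429 and mir-200b did not pass the filter there. Paired and unpaired values were alike in size, -0.89 and -0.80 for mir-200a. DESeq2 and the GC correction kept 3. Leaving out 1 clone gave 0 to 3. For the deletion under control shRNAs 0 became 1 with DESeq2 and with single libraries, and 0 to 1 on leaving out a clone. For deletion with ERH shRNAs against wild-type controls 1 became 2 with DESeq2 and with no filter, and 0 with spike-in scaling, total scaling, the mean of 100 counts, the GC correction and single libraries, with 0 to 1 on leaving out a clone. The mean of 100 counts and single libraries each tested 2 members there, and mir-200a was not tested. For ERH shRNA 1 the 1 call became 0 with total scaling, with no filter and without the block, and 0 to 1 on leaving out a clone. For knockdown in deletion clones, leaving out a clone gave 0 to 1. The block changed no other member call.

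Signs turned where a value was near 0 or where a scaling moved all rows. The knockdown value of mir-200c over 8 clones was -0.032 with DESeq2, -0.0044 without the block and -0.017 to 0.10 on leaving out a clone, and that of mir-141 was 0.045 with spike-in scaling. In wild-type clones mir-200c was 0.62 with spike-in scaling, 0.33 with total scaling, 0.081 with no filter, 0.052 with the mean of 100 counts, 0.013 with GC correction, 0.0082 with single libraries and -0.12 to 0.15 on leaving out a clone, and mir-141 was 0.25 with spike-in scaling. In deletion clones mir-200c ranged from -0.015 to 0.22 on leaving out a clone. For the deletion under control shRNAs spike-in and total scaling gave 0.10 and 0.011 for mir-200c and 0.29 and 0.14 for mir-141. For both changes together they gave 0.41 and 0.21 for mir-200c. For ERH shRNA 1 mir-141 was 0.032 with spike-in scaling and mir-200c -0.044 to 0.26 on leaving out a clone. For control shRNA 2 against 1 mir-141 was 0.021 with spike-in scaling and mir-200a -0.40 to 0.15 on leaving out a clone.

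For the interaction, spike-in and total scaling gave -0.30 and -0.12 for mir-200a, -0.25 and -0.073 for mir-200c, and -0.39 and -0.22 for mir-141. With no filter mir-200a was -0.022 and mir-141 -0.13, and with single libraries they were -0.030 and -0.025. The value of mir-141 was -0.14 with the mean of 100 counts, -0.072 with GC correction and -0.026 without the block. Leaving out a clone gave -0.41 to 0.35 for mir-200a, -0.82 to 0.78 for mir-429, -0.089 to 0.30 for mir-200c and -0.36 to 0.10 for mir-141.

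Among log2 ratios, shRNA 1 libraries alone gave -0.58 for mir-200a to mir-200b and -1.21 for mir-429 to mir-200b under the deletion with control shRNAs, and 0.73 for the interaction of mir-429 to mir-200b. The shRNA 2 libraries alone gave -0.27 for mir-141 to mir-200c under the deletion with control shRNAs, 0.18 under the deletion with ERH shRNAs and 0.45 for the interaction. Leaving out a clone gave -0.49 to 0.56 for the knockdown value of mir-200a to mir-200b and -0.48 to 1.39 for the deletion value of mir-429 to mir-200b. For mir-141 to mir-200c it gave -0.19 to 0.51 under the deletion with control shRNAs, -0.11 to 0.17 with ERH shRNAs and -0.50 to 0.20 for the interaction.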
